A study of Bos taurus with 16 samples.

Results

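Transcript levels of 9 genes of the motile ciliary axoneme were examined in cattle (Bos taurus) cumulus and granulosa cells. Cumulus cells surround the oocyte, and granulosa cells line the wall of the ovarian follicle. The genes are HYDIN, CFAP44, IQCA1, TCTE1, EFCAB1 (CLXN), ZBBX, C3H1orf194, C3H1orf189 (CFAP141) and C15H11orf88 (HOATZ), 9 of 36824 entries of the count table. They were picked by name for their place in the axoneme, with their counts in the 4 groups and in contralateral granulosa library 3 (column X15) already known. Levels between the cell types and in X15, with fitted differences and their SE, are therefore a description, and no test of them is used.

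There were 4 groups of 4 libraries. Each of the cell types was taken from follicles labelled ipsilateral and from follicles labelled contralateral. The series' title ties these sides to the nearness of the corpus luteum, which forms from the ovulated follicle and secretes progesterone. The design text gives 4 pools per experimental group with material of 3 animals in each. The labels give no strain, age or hormone treatment. Animals shared between groups are not stated either, so p-values measure the spread among pools.

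A motile cilium is built on a ring of microtubule doublets around a central pair. Dynein arms on the doublets drive bending, and the nexin-dynein regulatory complex links neighbouring doublets and controls the arms. HYDIN belongs to the central pair apparatus. IQCA1 and TCTE1 are parts of the nexin-dynein regulatory complex, and CFAP44 tethers a dynein to the doublet. EFCAB1 (calaxin) is a calcium-binding protein at the base of the outer dynein arm. C3H1orf189 and C3H1orf194, the cattle counterparts of human CFAP141 and CFAP276, lie inside the doublets. C15H11orf88 (HOATZ) is needed for motile cilia and sperm flagella, and ZBBX is named for its B-box zinc-finger domain. Multiciliated epithelia such as the oviduct and the sperm tail are the known sites of this machinery, whereas granulosa cells are known for a primary cilium, which does not beat.

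Libraries held 10.1 to 21.9 M counted reads (M, 10 to the power of 6), and X15 held 20.1 M. Levels are CPM, counts scaled to a library of 1 M after TMM scaling. Where no read was counted, a level of up to 3 counts remains possible, or 0.135 to 0.316 CPM depending on depth. These limits and all counting intervals below cover counting error only. The libraries X15 and X8 stood apart. X15 held 240 of 13783 entries at least 5-fold above every other granulosa library, and X8 (contralateral cumulus library 4) held 319 of 13425 above every other cumulus library. The remaining 14 libraries had 0 to 26 such entries. The labelled cell types could not be checked, since 4 of 79 listed marker genes were found by name and none of these marks cumulus or granulosa cells. In bulk RNA, fewer cells of a type and less RNA per cell cannot be told apart.

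The 9 genes fell into 2 patterns. HYDIN and IQCA1 were high in cumulus libraries and low in granulosa libraries, whichever ovary they came from. The other 7 were near 0 in nearly all libraries and high in X15.

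**Figure D1:**
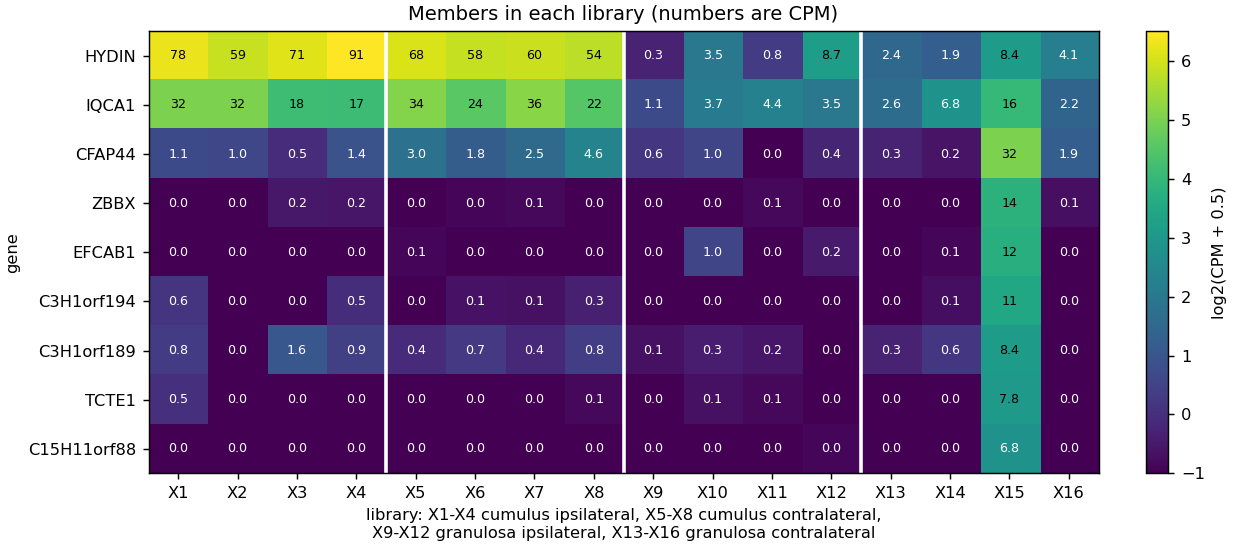
Level of each of the 9 genes (rows) in each of the 16 libraries (columns), coloured by log2(CPM + 0.5) with the CPM printed in each cell. HYDIN and IQCA1 are bright across X1 to X8, and all rows from CFAP44 downwards are brightest in X15.

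HYDIN, the central pair gene, stood at 77.5, 58.7, 70.8 and 90.6 CPM in ipsilateral cumulus libraries 1 to 4. In contralateral cumulus libraries it stood at 67.7, 57.7, 60.1 and 53.8 CPM. Ipsilateral granulosa libraries had 0.324, 3.53, 0.768 and 8.72 CPM, and contralateral granulosa libraries 2.43, 1.85, 8.44 and 4.14 CPM. No granulosa library reached the cumulus range, with 53.8 CPM as the lowest cumulus and 8.72 CPM as the highest granulosa value. In the order of group means, ipsilateral cumulus cells came first (74.4 ± 13.3 CPM, SD, n = 4), then contralateral cumulus (59.8 ± 5.83), contralateral granulosa (4.21 ± 2.98) and ipsilateral granulosa cells (3.34 ± 3.86). Without X15 the contralateral granulosa mean was 2.8 ± 1.19 CPM (n = 3), below the ipsilateral one. Within each cell type the sides overlapped. The fitted difference, cumulus minus granulosa, was 4.11 ± 0.49 (log2 fold change, SE), or 17.3-fold, and 4.41 without X15.

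IQCA1, a nexin-dynein regulatory complex gene, stood at 32.3, 31.9, 17.7 and 17.3 CPM in ipsilateral and at 34.1, 23.6, 35.6 and 22.5 CPM in contralateral cumulus libraries. Granulosa libraries had 1.10, 3.67, 4.42 and 3.51 CPM on the ipsilateral and 2.64, 6.77, 15.9 and 2.19 CPM on the contralateral side. The cell types did not overlap here either, but X15, at 15.9 CPM, came close to the lowest cumulus value of 17.3 CPM. The next highest granulosa library had 6.77 CPM. The fitted difference was 2.51 ± 0.38, or 5.68-fold, and 2.92 without X15.

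**Figure D2:**
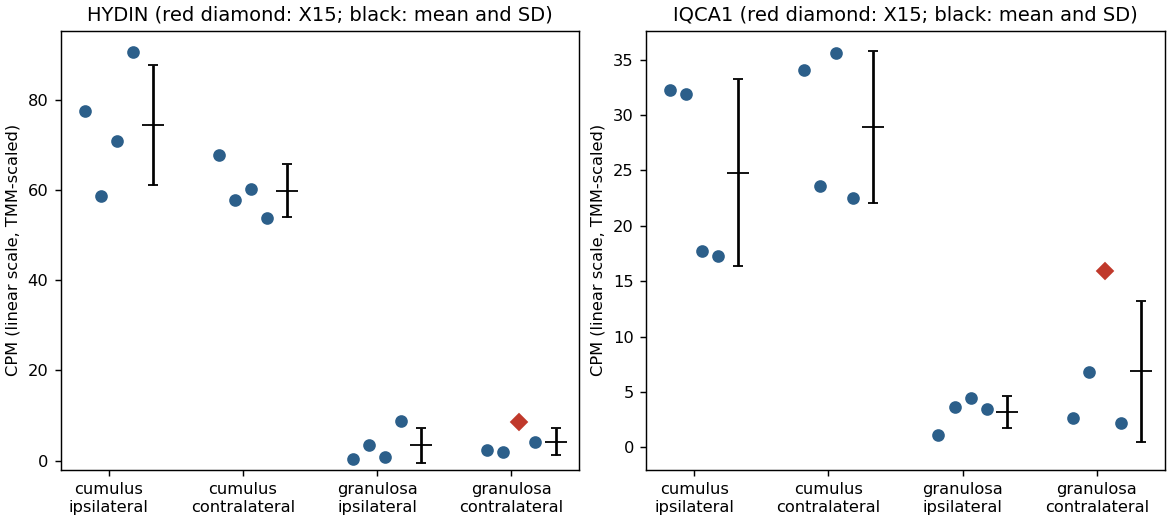
CPM of HYDIN (left) and IQCA1 (right) on linear axes, 1 point per library in the 4 groups, with the group mean and SD in black and X15 as a red diamond. For both genes every cumulus point lies above every granulosa point, and for IQCA1 the X15 point lies between the clouds.

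HYDIN and IQCA1 differed in how they varied inside granulosa cells. The highest HYDIN values were those of ipsilateral library 4 (X12, 8.72 CPM) and X15 (8.44 CPM), so that X15 did not lead. X15 held 2.45 times the pooled HYDIN level of the 7 other granulosa libraries (95% counting interval 2.03 to 2.94), and 4.40 times for IQCA1 (3.79 to 5.10). The cumulus-high secreted-peptide gene C11H2orf40 (ECRG4) moved with HYDIN among granulosa libraries, at 10.9, 99.8, 18.2 and 197 CPM on the ipsilateral and 29.6, 65.6, 134 and 173 CPM on the contralateral side. Pearson's r of the log2 levels was 0.925 over these 8 libraries. C11H2orf40 was picked for its correlation with HYDIN over all 16 libraries, these 8 included, so the value describes that choice. In X12, where HYDIN was highest among granulosa libraries, IQCA1 had 3.51 CPM. Whether cumulus cells or their RNA were present in granulosa pools was not tested.

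The named entry most like HYDIN over all 16 libraries, among 808 searched, was ARMC4 (ODAD2), a docking gene of the outer dynein arm (Pearson's r = 0.976 of log2(CPM + 0.5)). C11H2orf40 (0.971), the adenylosuccinate synthase gene ADSSL1 (ADSS1, 0.968) and the muscarinic receptor gene CHRM3 (0.967) followed. All 4 share the split between the cell types with HYDIN. Within the 8 granulosa libraries the same entries had r of 0.880, 0.925, 0.892 and 0.852, and within the 8 cumulus libraries 0.313, -0.444, -0.272 and 0.042. Among the members, r with HYDIN was 0.896 for IQCA1 and at most 0.341 for the others, and without X15 it was 0.912 and at most 0.632.

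CFAP44, the tether gene, had the highest level in X15, at 32.0 CPM from 647 counts. The other contralateral granulosa libraries had 0.316, 0.159 and 1.89 CPM, and the ipsilateral ones 0.647, 0.982, 0 and 0.360 CPM. Cumulus libraries had 1.10, 1.01, 0.470 and 1.40 CPM on the ipsilateral and 2.97, 1.80, 2.53 and 4.63 CPM on the contralateral side. X15 thus lay 51.8-fold above the 7 other granulosa libraries pooled (95% counting interval 40.4 to 67.2) and 15.1-fold above the cumulus libraries pooled (13.1 to 17.5). X15 supplied 90.2% of all granulosa counts of CFAP44.

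ZBBX had 276 counts in X15 (13.6 CPM) and 2 counts in contralateral granulosa library 4, with 0 in libraries 1 and 2. The ipsilateral granulosa libraries had 0, 0, 1 and 0 counts. Cumulus libraries had 0, 0, 3 and 3 counts on the ipsilateral and 0, 1, 1 and 0 on the contralateral side. X15 held 98.9% of the granulosa counts of ZBBX and 96.2% of its counts in all libraries.

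TCTE1, the other nexin link gene, had 157 counts in X15 (7.75 CPM) and 0 in each of the other contralateral granulosa libraries. The ipsilateral granulosa libraries had 0, 2, 1 and 0 counts. Cumulus libraries had 6, 0, 0 and 0 counts on the ipsilateral and 0, 0, 0 and 1 on the contralateral side. Unlike IQCA1, its partner in the same complex, TCTE1 had no more than 6 counts in any cumulus library (0.507 CPM, in ipsilateral library 1).

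EFCAB1, the calaxin gene, had 254 counts in X15 (12.5 CPM). The other contralateral granulosa libraries had 0, 1 and 0 counts, and the ipsilateral ones 0, 15, 0 and 5. In cumulus cells there was 1 count in all, in contralateral library 1. Its next highest level, 0.982 CPM in ipsilateral granulosa library 2 (X10), was also above every cumulus library.

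The doublet genes had the same leading library. C3H1orf194 had 220 counts in X15 (10.9 CPM), 2 in contralateral granulosa library 2 and 0 in the 6 other granulosa libraries. In cumulus cells it had 7, 0, 0 and 8 counts on the ipsilateral and 0, 3, 2 and 5 on the contralateral side. C3H1orf189 had 8.44 CPM in X15, and 3, 12 and 0 counts in contralateral granulosa libraries 1, 2 and 4. It had 2, 4, 3 and 0 counts in ipsilateral granulosa libraries. Cumulus libraries had 9, 0, 23 and 14 counts on the ipsilateral and 8, 14, 6 and 14 on the contralateral side. C3H1orf189 was therefore detected in 7 of 8 cumulus libraries, at up to 1.55 CPM, below its level in X15.

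C15H11orf88 (HOATZ) had 137 counts in X15 (6.77 CPM), 1 in ipsilateral granulosa library 4 and 0 in all 14 others, all 8 cumulus libraries included. Of its counts, 99.3% came from X15.

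Against the 7 other granulosa libraries pooled, the ratio of X15 was largest for C15H11orf88, at 767. It rests on 1 count outside X15, and its counting interval, which reaches 30500, is the widest. The share of X15 in the granulosa counts of C15H11orf88 had an exact 95% interval of 96.03% to 99.98%. X15 held 616 times the level of C3H1orf194 (95% counting interval 169 to 5120). The ratio was 515 for ZBBX (175 to 2510) and 293 for TCTE1 (98.5 to 1440). It was 67.8 for EFCAB1 (43.4 to 111) and 39.9 for C3H1orf189 (25.9 to 64.0). The upper bounds are wide where the other libraries held 1 to 3 counts. Summed over the 7 genes, X15 had 92.0 CPM and each other library 0.320 to 5.76 CPM, the highest of these in X8.

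X15 was the highest granulosa library for 8 of the 9 members, all but HYDIN, against 13.7% of 27033 entries with a granulosa count. At least 5-fold above the next granulosa library, counted with a floor of 3 counts, were 7 of the 9 members, against 1.74% of all entries with at least 50 counts in X15. Since X15 was singled out with these genes in view, that share describes the choice of members. The lists of other axoneme genes were also drawn up with earlier results of these data known, so their shares are a description. Of 28 other listed axoneme genes that could be found by name, 25 had at least 50 counts in X15. Of these 25, 2 were at least 5-fold above the next library (8.0%): WDR63 (DNAI3), an inner dynein arm chain, at 19.5 against 1.17 CPM, and C16H1orf158 (CFAP107), a doublet gene, at 4.74 against 0.0449 CPM. X15 was the highest granulosa library for 18 of the 25 (72.0%), against 12.7% of all entries with as many counts. These included the central pair gene CFAP47 at 19.9 against 8.70 CPM, the radial spoke gene MAATS1 at 10.5 against 2.43 CPM and the docking gene CCDC114 at 27 against 7.94 CPM. Of 44 genes on the list of intraflagellar transport, which also serves primary cilia, 5 were found by name. Among these 5, 1 was highest in X15, DYNC2H1 at 37.2 against 24.8 CPM. The regulators of multiciliation were represented by 1 gene, E2F5, at 5.93 CPM in X15 and 4.92 to 10.6 CPM in the other granulosa libraries.

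**Figure D3:**
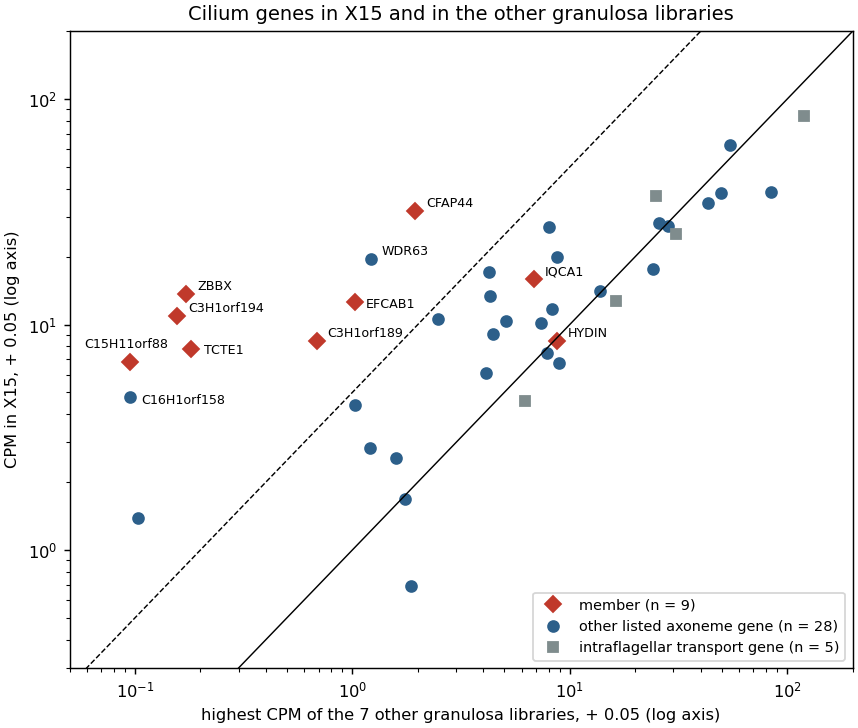
CPM in X15 (vertical, log axis) against the highest CPM of the 7 other granulosa libraries (horizontal, log axis) for 9 members, 28 other listed axoneme genes and 5 intraflagellar transport genes, each with 0.05 added. The solid line marks equal levels and the dashed line a 5-fold excess, and 7 members lie far above the dashed line while HYDIN lies on the solid line.

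Among 590 named entries with at least 50 counts in X15, the 10 with the highest ratio to the next granulosa library included 6 members. They were ZBBX (43.1), C3H1orf194 (34.3), TCTE1 (24.5), C15H11orf88 (21.4), CFAP44 (16.9) and C3H1orf189 (13.3). As the members were chosen with their X15 values known, their rank describes that choice. WDR63 (16.7) and C16H1orf158 (15) came from the same axoneme lists. The remaining entries were H1FOO (H1-8, 16.5), the oocyte linker histone gene, and LOC112446404 (CCDC201, 13.6).

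The oocyte markers found by name, 2 of 14 listed, were also highest in X15 among granulosa libraries. BCL2L10 stood at 5.53 CPM and H1FOO at 5.23 CPM in X15, against at most 1.11 and 0.262 CPM in other granulosa libraries. In X8 the same markers stood at 111 and 92.2 CPM. There, ZBBX, EFCAB1 and C15H11orf88 had 0 counts, TCTE1 1 count, C3H1orf194 5 counts and C3H1orf189 14 counts. CFAP44 had 4.63 CPM in X8, its highest cumulus value. In X8, 6 of the 7 genes lay at or below 0.791 CPM. LOC112446404 likewise stood at 78.4 CPM in X8. Of the 16 genes listed for ciliated oviduct epithelium, MUC16 was the one found by name. Whether MUC16 marks ciliated cells in particular was not checked. It had 24.6 CPM in X15, 44.2 CPM in ipsilateral granulosa library 3 (X11) and 0 to 9.97 CPM in the 6 other granulosa libraries. In X11 the 7 genes summed to 0.320 CPM. Of 10 listed leukocyte markers PF4 was found, at 3.65 CPM in X15 and 0.448 to 3.90 CPM in the other granulosa libraries. Whether epithelial cells or oocytes contributed RNA to X15 was not tested.

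The named entries most like CFAP44 over the 16 libraries were CASC1 (DNAI7, r = 0.820), a dynein-associated gene, PRUNE2 (0.803), C8H9orf135 (CFAP95, 0.795), C11H9orf116 (PIERCE1, 0.791) and WDR63 (0.764). Of these 5, all but PRUNE2 stand in the axoneme lists. Without X15 the values were 0.655, 0.610, 0.589, 0.373 and 0.213.

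Between the cell types, 4 members passed the filter on low counts and were fitted, and 5 did not (TCTE1, EFCAB1, ZBBX, C3H1orf194 and C15H11orf88). HYDIN and IQCA1 are described above. CFAP44 had -0.27 ± 0.87 (log2 fold change, SE), and 1.44 without X15. By limma-voom with all 16 libraries CFAP44 had 1.16, so its direction was not settled. C3H1orf189 had 0.21 ± 0.82, and 1.63 without X15.

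The other axoneme genes, listed by function, were split in direction. Of 26 tested, 7 were higher in cumulus cells, 4 were higher in granulosa cells and 15 did not pass by edgeR's quasi-likelihood test at an adjusted p under 0.05. Of all 18038 entries tested 60.2% were called, 29.9% with more in cumulus and 30.3% with more in granulosa cells. Their median log2 fold change was 0.19, against 0.03 for all entries tested. Higher in cumulus cells were the dynein docking and assembly genes ARMC4 (4.95-fold), LRRC6 (DNAAF11, 2.82-fold) and SPAG1 (2.20-fold), the radial spoke gene MAATS1 (2.53-fold, and 4.06-fold without X15) and CCDC189 (CFAP119, 2.07-fold). C14H8orf37 (1.78-fold) and C1H21orf2 (CFAP410, 1.35-fold), which are known from non-motile cilia, were higher too and count among the 7. Higher in granulosa cells were the dynein light chain gene TCTE3 (DYNLT2, 12.7-fold), the central pair gene CFAP221 (5.79-fold), CCDC114 (1.72-fold) and the dynein chain gene WDR78 (1.52-fold). None of the 7 listed genes called toward cumulus cells reached the 17.3-fold difference of HYDIN, a member chosen with this difference known.

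Without X15 the same 26 genes gave 10 calls toward cumulus and 3 toward granulosa cells, with a median of 0.56 against 0.04 for all entries, of which 59.4% were called (29.9% toward cumulus and 29.5% toward granulosa cells). CFAP46 (log2 fold change 0.81, adjusted p = 0.0376 by edgeR), CFAP47 (0.96, adjusted p = 0.00486) and CASC1 (0.88, adjusted p = 0.00231) were then called higher in cumulus cells. With all libraries they had 0.48, 0.62 and 0.31 and were not called. CCDC114 lost its call (-0.35, adjusted p = 0.178 by edgeR). Without X8 instead, 7 and 3 were called, where 58.0% of all entries were, and CCDC114 again was not (adjusted p = 0.0614 by edgeR). Without both libraries the calls were 9 and 3, where 58.2% of all entries were called, and CFAP46 was not called (adjusted p = 0.0559 by edgeR).

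**Figure D4:**
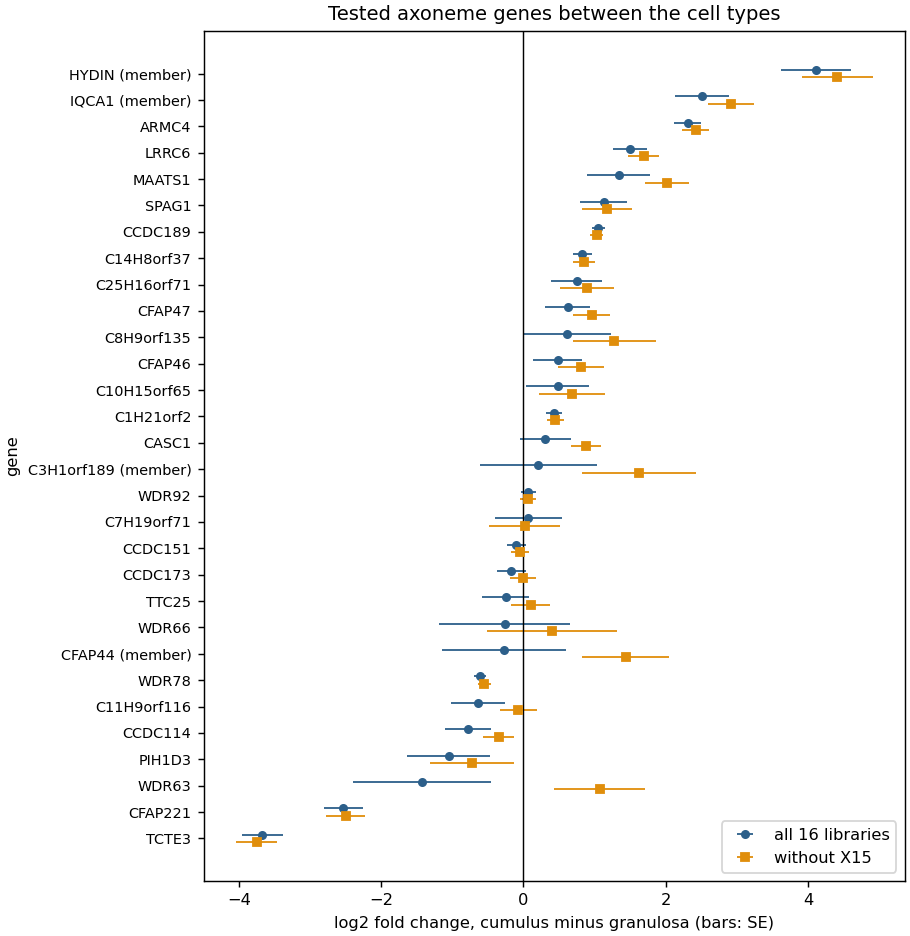
Log2 fold change between cumulus and granulosa cells, positive when higher in cumulus cells, for 4 members and 26 other listed axoneme genes, with all 16 libraries (circles) and without X15 (squares). Bars are SE, and WDR63, CFAP44 and C3H1orf189 move by more than 1 unit when X15 is left out while HYDIN and ARMC4 stay near their place.

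On the intraflagellar transport list 5 of 44 genes were found by name, so these 5 do not stand for the list. Of them, 4 were higher in cumulus cells by edgeR, against 29.9% of all entries. They were WDR60 (DYNC2I1, 3.76-fold), IFT172 (1.52-fold), DYNC2H1 (1.33-fold) and, named outside the rule for named genes, WDR34 (DYNC2I2, 1.29-fold). E2F5 did not pass (log2 fold change -0.28, adjusted p = 0.272 by edgeR).

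The study's main question, the side of the corpus luteum, was tested within each cell type. In cumulus cells 4 members were tested and 0 were called by edgeR, where 0.0% of 16323 entries were called. At an unadjusted p under 0.05 there were 1791 entries, and DESeq2 called 121 entries, none of them a member. CFAP44 had 0.470 to 1.40 CPM in ipsilateral and 1.80 to 4.63 CPM in contralateral cumulus libraries, the highest in X8. What share of all entries separates by side in this way was not counted. The log2 fold change of CFAP44, ipsilateral minus contralateral, was -1.58 ± 0.43 SE (adjusted p = 0.389 by edgeR), and -1.29 without X8. Its adjusted p was 0.0865 to 0.825 over the alternatives. HYDIN had 0.31 ± 0.13 (adjusted p = 0.440), IQCA1 -0.23 ± 0.24 (adjusted p = 0.752) and C3H1orf189 0.48 ± 0.72 (adjusted p = 0.839). At this number of pools no side difference of these genes could be told from the spread among libraries.

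In granulosa cells 3 members were tested and 0 called by edgeR, where 0.0% of 16411 entries were called and 579 (3.53%) had an unadjusted p under 0.05. CFAP44 had -4.14 ± 1.70 SE (adjusted p = 1.0), and -0.68 without X15. IQCA1 had -1.13 ± 0.66 (adjusted p = 1.0), and -0.28 without X15. HYDIN had -0.35 ± 0.88 (adjusted p = 1.0), and 0.26 without X15. The lower ipsilateral values of CFAP44 and IQCA1 thus rested largely on X15.

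Whether the side difference itself differed between the cell types was tested for 4 members, of which 0 were called by edgeR, where 0.0% of 18038 entries were called and 1358 (7.53%) had an unadjusted p under 0.05. C3H1orf189 had the largest value, 4.49 ± 1.82 SE (cumulus minus granulosa, adjusted p = 0.658), and 1.62 without X15. CFAP44 had 2.54 ± 1.71 (adjusted p = 0.762), and -0.89 without X15. IQCA1 had 0.91 ± 0.73 (adjusted p = 0.812), and 0.08 without X15. HYDIN had 0.63 ± 0.89 (adjusted p = 0.911), and 0.02 without X15.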

How the data were processed

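Poly(A) RNA of 16 libraries was measured by RNA-seq. The authors deposited unnormalized read counts per gene entry, with a column for each library whose name is the sample's title. Per the labels' protocols, cDNA was made with SMART-Seq HT and libraries with Nextera XT, which do not mark strand, and 75 bp single-end reads were sequenced. FastQC, Trimmomatic, STAR and DESeq2 are named, per the submitters' processing notes. Which build, annotation and counter were used is not given here in any source.

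Low entries were removed by edgeR's filterByExpr, at a count of 10 and a total of 15, and the rest scaled with TMM and tested with edgeR 4.0.16 (limma 3.58.1, DESeq2 1.42.0, R 4.3.3) by robust quasi-likelihood F-tests with Benjamini-Hochberg adjustment over all entries. An adjusted p under 0.05 made a call. The side was tested within the 8 libraries of either cell type, and the remaining comparisons within all 16 with 4 group means. The SE equals the absolute log2 fold change over the root of F. Counting intervals are exact Clopper-Pearson intervals of the share of counts. The fitting code was tested on simulated data. Alternatives were DESeq2, limma-voom, other size factors, no filter and left-out libraries.

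The members and lists were chosen with earlier results of these data known. The rule for named genes was all 9 members, per direction the 10 listed genes with the largest called change, the 5 named entries most correlated with HYDIN and with CFAP44, and the 10 named entries highest in X15 against the other granulosa libraries. Of the entries correlated with HYDIN, 1 is not reported here. Of 230 listed genes in 6 lists, 43 were found by name, since most entries carry Ensembl IDs that the RefSeq table (ARS-UCD2.0) does not hold. Of 9 marker lists, those of granulosa cells, cumulus cells, theca cells, endothelium, red blood cells and spermatogenic transcripts had 0 genes found. EFCAB1, C3H1orf189 and C15H11orf88 have the same counts as an Ensembl entry in every library. In RefSeq, CFAP44 overlaps BOC, IQCA1 a tRNA gene, TCTE1 TMEM151B, C3H1orf189 UBAP2L, and C15H11orf88 BTG4, so without strand their reads cannot be assigned with certainty.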

Additional observations from a re-analysis of the deposited data

Results flagged for a closer look

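In 7 genes, contralateral granulosa library 3 (X15) stood apart from the other 3 libraries of its group by a gap above Dixon's critical share of the range. Since these genes were chosen with their X15 values known, this describes the choice and is no test. The values were 32.0 CPM for CFAP44, 13.6 for ZBBX, 12.5 for EFCAB1, 10.9 for C3H1orf194, 8.44 for C3H1orf189, 7.75 for TCTE1 and 6.77 for C15H11orf88. HYDIN and IQCA1 did not meet this rule in any group.

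The rule was also met by single libraries with 1 to 6 counts in groups otherwise at 0. These were TCTE1 in ipsilateral cumulus library 1 (0.507 CPM, 6 counts) and contralateral cumulus library 4 (0.0565 CPM, 1 count), and EFCAB1 in contralateral cumulus library 1 (0.0531 CPM, 1 count). ZBBX in ipsilateral granulosa library 3 (0.0640 CPM, 1 count) and C15H11orf88 in ipsilateral granulosa library 4 (0.0449 CPM, 1 count) met it likewise. In such groups the gap equals the whole range by construction. The rule was met in 12 of 32 groups with any spread, and its chance rate of about 1 in 20 does not apply to either kind.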

How the results depend on the processing

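Between the cell types, HYDIN had log2 fold changes of 3.81 to 4.69 and IQCA1 of 2.06 to 2.97 over the alternatives run, as a description. CFAP44 turned positive by limma-voom (1.16), with ipsilateral libraries alone (0.99) and without X15 and X8 together (1.30), and ran from -0.47 to 1.44 when single libraries were left out. C3H1orf189 had -2.05 with contralateral libraries alone and ran from -0.06 to 1.63 with single libraries left out. For the side in cumulus cells C3H1orf189 had -0.14 by limma-voom and ran from -0.05 to 0.86. For the side in granulosa cells HYDIN had 0.25 by DESeq2 with X15 left out and ran from -1.45 to 0.26. For the difference of side differences, without X15 and X8 together, HYDIN had -0.03, CFAP44 -0.60 and IQCA1 -0.02, and CFAP44 ran from -0.89 to 3.07 with single libraries left out. DESeq2 called 121 entries by side in cumulus cells and 1 in granulosa cells, where edgeR called 0, 9 in granulosa cells with X15 left out and 1 for the difference of side differences. The causes were not tested. Leaving out X15 with DESeq2, X15 and X8 together in the last comparison, and scaling by total counts were chosen after seeing the data. The X15 ratios moved within their counting intervals by total counts. No paired analysis was possible because the labels carry no replicate numbers shared between groups. Genes with under 3 counts in a library lie at the limit of depth.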

Other observations

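Further named entries at least 4.5-fold above the next granulosa library in X15, described here after their values were seen, had no place in the lists. CTXND1 stood at 6.67 against 0.633 CPM, MGC148318 at 2.86 against 0.327 CPM and the potassium channel gene KCNS3 at 4.79 against 0.720 CPM. WDR93 stood at 11.3 against 2.29 CPM and PRR29 at 3.95 against 0.852 CPM. In X8, the library with the highest oocyte markers, CTXND1 had 0.113, MGC148318 0, KCNS3 0.226, WDR93 6.22 and PRR29 0.0565 CPM. LOC505120 (TLE7), in contrast, stood at 3.36 CPM in X15 and 19.8 CPM in X8.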
